A study of Homo sapiens with 2 samples.

Results

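The TGF-beta, BMP and activin signalling genes were examined in RNA-Seq of A1847 cells, a human epithelial ovarian cancer cell line with high CARM1. CARM1 is an arginine methyltransferase. The members were a fixed set of 45 genes covering ligands, latent binding proteins, antagonists, receptors, SMAD proteins, SMURF ubiquitin ligases and the ID target genes, out of 57736 genes in the table. All 45 were found by Ensembl identifier. The comparison was between 1 library of parental cells, labelled CARM1 wild type, and 1 library of CARM1 KO cells, in which CARM1 was targeted with a lentiviral CRISPR guide RNA. The knockout line is a clone, whereas the control is the parental line, and it is not stated that the parental cells carried the vector. Both libraries came from untreated cultures grown in RPMI medium with serum. No difference below has a replicate check, since each condition had 1 library. What the loss of CARM1 did and what the choice of one clone did cannot be told apart.

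TGF-beta family ligands are secreted dimers that bring type II and type I receptor kinases together at the cell surface. TGF-beta and activins signal mainly through SMAD2 and SMAD3, and BMPs through SMAD1, SMAD5 and SMAD9. Both sets enter the nucleus with SMAD4, where BMP signalling classically induces the ID genes. The inhibitory SMAD6 and SMAD7, the SMURF ligases, the pseudoreceptor BAMBI and secreted antagonists restrain the pathway. In the ovary, activins, inhibins and BMPs are local regulators of follicle growth, and in ovarian cancer cells TGF-beta and BMP signals are studied for their effects on growth and epithelial state.

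The parental library held 30741953 reads and the CARM1 KO library 32300391 reads. CARM1 had 975 parental and 380 CARM1 KO reads, 2.63-fold lower after scaling (95% interval 2.33 to 2.97). Fold differences are ratios of TMM-scaled counts, and their exact 95% binomial intervals cover counting error only. The comparison was limited to genes whose reads summed to 10 or more over the libraries, which were 18563 of all genes and 44 of the 45 members. BMP2, with 5 parental and 1 CARM1 KO reads, fell below this minimum. Of the epithelial and ovarian cancer markers listed for the cell line, 6 of the 8 with enough reads were more than 3-fold higher in CARM1 KO cells and 1, KRT19, was lower. EPCAM had 249 and 848 reads and PAX8 had 311 and 1149, while MUC16 had 0 parental and 1 CARM1 KO reads, and WT1 had 8 and 1. Among the fibroblast markers 5 of 7 were more than 3-fold lower, namely COL1A2, DCN, LUM, PDGFRA and THY1. COL1A1 had more reads, 131 and 537, and PDGFRB had 132 and 142. The summed reads of all 7 went from 32084 to 689. Of the leukocyte markers CD3E had 0 reads in both libraries, PTPRC had 6 and 0, and CD68 had 400 and 1644. Of the endothelial markers, CDH5 had 0 reads in both libraries and VWF had 1 and 2. Of the smooth muscle markers, MYH11 went from 538 reads to 6 and DES from 7 to 80. The part of these marker shifts in the results below was not tested.

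Lower levels outnumbered higher ones among the members. At a fold above 3, which is the fold threshold of the study, 13 of the 44 members were lower in CARM1 KO cells and 5 were higher. Over all genes compared, 11.7% were lower and 12.8% were higher by this rule, against 29.5% and 11.4% of the members. At a fold above 2, 15 members were lower and 8 were higher, against 19.1% and 19.6% of all genes. The other 21 lay within 2-fold. The median log2 fold change of the members was -0.49, and that of all genes compared was -0.02. Without a prior count, and with counts below 3 set to 3 reads, the median of the members was -0.50. This sets BMP5, which had 0 reads in CARM1 KO cells, to a bound. The 13 lower members were ID2, ID3, ID4, BMP5, BMP6, BMP7, TGFB3, GDF15, INHA, LTBP1, LTBP4, BMPR1A and SMAD6. The 5 higher members were ENG, BAMBI, INHBB, TGFBR2 and LTBP2. Without a replicate, and with members chosen when earlier results were known, these shares describe the libraries.

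**Figure D1:**
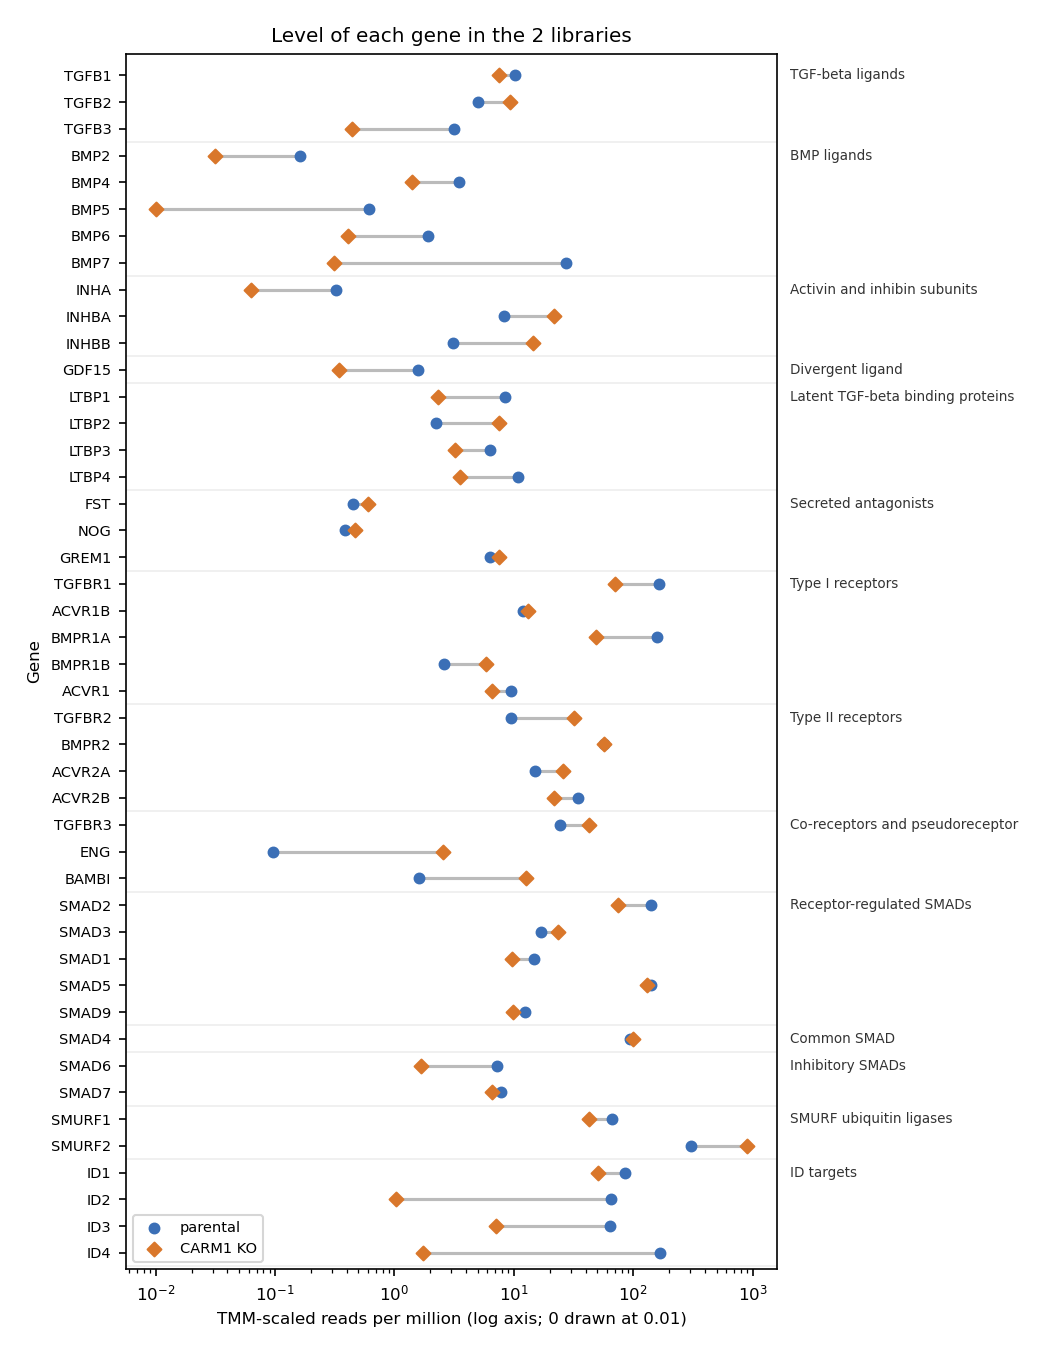
TMM-scaled CPM (log axis) of the 45 genes, grouped by role, in the parental library (circles) and the CARM1 KO library (diamonds), with a line joining the 2 values of each gene. ID2, ID3, ID4 and BMP7 have their CARM1 KO value far to the left of the parental one, ENG and BAMBI far to the right, and BMPR2 and SMAD4 have nearly the same value in both.

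The ID genes encode helix-loop-helix proteins that bind E proteins and keep them from DNA, and they are widely used as readouts of BMP signalling. ID4 had the largest fold of any member, and ID2 the third largest after BMP7. ID4 (chr6:19837601-19842428, plus strand, GRCh37) had 5184 parental and 55 CARM1 KO reads, a level 96.5-fold lower (95% interval 74.0 to 128). ID2 (chr2:8818975-8824591, plus strand) had 2021 and 33 reads, 62.7-fold lower (95% interval 44.5 to 91.3). ID3 (chr1:23884417-23885992, minus strand) had 1999 and 225 reads, 9.10-fold lower (95% interval 7.92 to 10.5). ID1 (chr20:30193086-30194318, plus strand) stood apart from these. Its reads were 2657 in parental and 1618 in CARM1 KO cells, 1.68-fold lower (95% interval 1.58 to 1.79), and its interval did not meet that of any other ID gene.

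Per length, the 4 ID genes together went from 184 to 46.8 RPKM (reads per kb of exon, scaled for library size), 3.94-fold lower. In parental cells the family was shared rather evenly, with ID1 at 37.5% of the summed level, ID4 at 23.3%, ID3 at 23.3% and ID2 at 15.9%. In CARM1 KO cells ID1 made up 88.0%, ID3 10.1%, ID2 1.00% and ID4 0.952%. ID1, ID3 and ID4 were each above 95% of all genes compared in parental cells by level per length. In CARM1 KO cells ID1 was still above 94.7% of genes, whereas ID3 was above 65.6%, ID2 above 28.7% and ID4 above 28.1%. The antisense transcripts that overlap ID2 and ID4 were few in reads and lower as well. ID2-AS1 had 14 parental and 0 CARM1 KO reads, and LNC-LBCS, opposite ID4, had 57 and 2.

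The ID genes had very unequal folds, and their upstream sequence was read from GRCh37 and searched on both strands, over the 2000 bases before the start of the canonical transcript. The letters searched were GGCGCC, a palindromic GC-rich motif bound by SMAD1 and SMAD5, the palindrome GTCTAGAC, a SMAD3 and SMAD4 binding element, and a composite described for BMP response elements, in which GTCT follows GGCGCC after 5 bases of any kind. This form of the composite was found before 0.367% of 19893 protein-coding genes and before 0 of the 45 members. Other endings and spacings were not searched, so the result does not cover them. In the ID1 window below, GACA follows GGCGCC after 5 bases, and in the ID2 window GTCT follows it at a shorter spacing. Both forms are outside the search. GGCGCC was found before 46.4% of all genes and 25 members, which was 55.6% of them. ID1, ID2 and ID4 each held it at 1 position and ID3 held it at 0. Its part in the folds was not tested. A match is a description of the letters and not a binding site. The windows are shown 5′ to 3′ on the strand of the gene with the motif in capitals, to let the surrounding bases be compared. The ID1 window overlaps an exon of the long non-coding RNA ENSG00000289875, and the other windows overlap no annotated exon.
ID1, 965 bases before the start, chr20:30192097-30192162: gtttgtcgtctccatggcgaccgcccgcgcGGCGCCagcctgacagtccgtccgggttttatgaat
ID2, 408 bases before the start, chr2:8821748-8821813: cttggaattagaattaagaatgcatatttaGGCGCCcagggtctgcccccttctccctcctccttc
ID4, 508 bases before the start, chr6:19837063-19837128: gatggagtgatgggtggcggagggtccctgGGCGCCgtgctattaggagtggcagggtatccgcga

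BMP ligands signal through BMPR2 or activin type II receptors with BMPR1A, BMPR1B or ACVR1. Those among the members were all fewer in reads in CARM1 KO cells. BMP7 (chr20:55743809-55841697, minus strand) was the most abundant of them in parental cells, with 845 reads, and had 10 reads in CARM1 KO cells. This was 86.5-fold lower (95% interval 46.8 to 181). BMP6 had 59 and 13 reads, 4.65-fold lower (95% interval 2.52 to 9.24), and it overlaps TXNDC5 on the opposite strand, which had far more reads in both libraries. BMP5 had 19 parental and 0 CARM1 KO reads, 6.48-fold lower when 0 is set to the 3 reads that a count of 0 allows. Its 95% interval started at 4.78-fold lower. BMP4 had 109 and 45 reads, 2.48-fold lower (95% interval 1.74 to 3.59), past 2-fold but not 3-fold. For BMP2 the 5 reads and 1 read gave an interval from 0.57-fold to 242-fold lower, so no difference was detectable at this depth.

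The summed level per length of the BMP ligands among the members was 10.8-fold lower in CARM1 KO cells, at 0.630 RPKM against 6.83. BMP7 accounted for 73.2% of the sum in parental cells and 9.17% in CARM1 KO cells. BMP4 accounted for 16.5% and then 72.3%, while its own level was lower. Among the members the BMP ligand with the highest level was thus BMP7 in the parental library and BMP4 in the CARM1 KO library. This held for each of the gene lengths tried. BMP8B, which is not a member and is not in the sum, had 90 parental and 101 CARM1 KO reads. BMP4 had 45 reads in CARM1 KO cells.

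**Figure D2:**
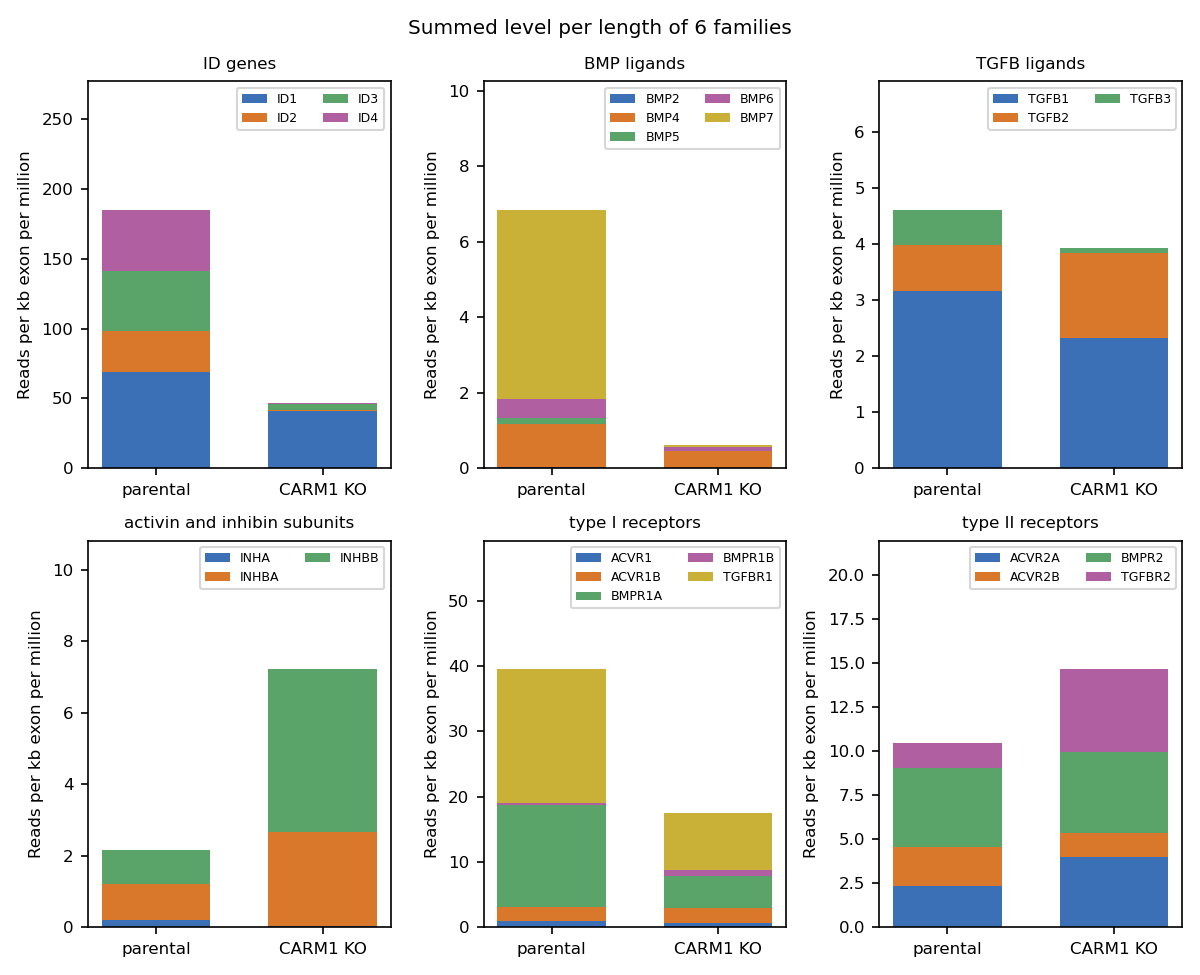
Level per length (RPKM, linear axis from 0) in parental and CARM1 KO cells for 6 families, stacked by gene. The ID family goes from 184 to 46.8 with ID1 nearly alone in CARM1 KO cells. The BMP ligands among the members go from 6.83 to 0.630, and the activin and inhibin subunits go from 2.16 to 7.21.

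The beta subunits of activins were higher in CARM1 KO cells, unlike the BMP ligands among the members. INHBB, which encodes the beta-B subunit of activins and inhibins, had 96 parental and 465 CARM1 KO reads, 4.73-fold higher (95% interval 3.79 to 5.96). INHBA, the beta-A subunit, had 259 and 692 reads, 2.61-fold higher (95% interval 2.26 to 3.02). INHA encodes the alpha subunit that turns a beta subunit into an inhibin. It had 10 parental and 2 CARM1 KO reads, 5.12-fold lower with an interval of 1.09 to 48.1, and it overlaps OBSL1 on the opposite strand, which had 1935 and 282 reads. Per length of all exons, INHBA was at 1.00 and INHBB at 0.962 RPKM in parental cells, but by the longest or the canonical transcript INHBA was at 1.38 RPKM there and INHBB still at 0.962. In CARM1 KO cells INHBB was at 4.55 and INHBA at 2.62 RPKM, or 3.59 by those transcripts, so INHBB was the higher under each length.

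Of the TGF-beta ligands TGFB3 alone was past 3-fold. TGFB3 had 99 parental and 14 CARM1 KO reads, 7.24-fold lower (95% interval 4.12 to 13.7). It overlaps IFT43 on the opposite strand, which had 159 and 172 reads. TGFB1 had 321 and 241 reads, 1.36-fold lower (95% interval 1.15 to 1.62), and TGFB2 had 156 and 295 reads, 1.85-fold higher (95% interval 1.52 to 2.26). TGFB1 remained the largest share of the 3 per length, at 68.7% in parental and 58.9% in CARM1 KO cells. The TGFB2 share was 18.0% and then 38.9%, and that of TGFB3 was 13.2% and then 2.14%. The summed level was 4.59 and 3.93 RPKM. TGFB1 shares its locus with HNRNPUL1, CCDC97 and TMEM91 on the opposite strand, of which HNRNPUL1 had 5147 and 3477 reads. GDF15, a distant family member known as a stress-induced cytokine, had 49 and 11 reads, 4.56-fold lower (95% interval 2.34 to 9.73).

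The latent TGF-beta binding proteins tether latent TGF-beta to the extracellular matrix, apart from LTBP2, which does not bind it. LTBP2 was the member of this group that was higher, with 70 parental and 238 CARM1 KO reads, 3.32-fold (95% interval 2.53 to 4.40). LTBP1 had 261 and 74 reads, 3.61-fold lower (95% interval 2.78 to 4.74). LTBP4 had 337 and 113 reads, 3.05-fold lower (95% interval 2.46 to 3.81), and it lay just past the threshold. LTBP3 had 195 and 102 reads, 1.96-fold lower (95% interval 1.53 to 2.51). LTBP4 had the largest share of the summed level per length in parental cells, 40.9%, and LTBP2 the smallest, 7.58%. In CARM1 KO cells LTBP2 had the largest share, 44.4%.

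The secreted antagonists among the members were all within 2-fold. Follistatin, which binds activins and is encoded by FST, had 14 parental and 19 CARM1 KO reads. Noggin, a BMP antagonist encoded by NOG, had 12 and 15 reads. GREM1, another BMP antagonist, had 196 and 240 reads, 1.20-fold higher with an interval of 0.99 to 1.45. The intervals of FST, 0.63 to 2.86, and of NOG, 0.53 to 2.86, were too wide to show a difference smaller than this.

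**Figure D3:**
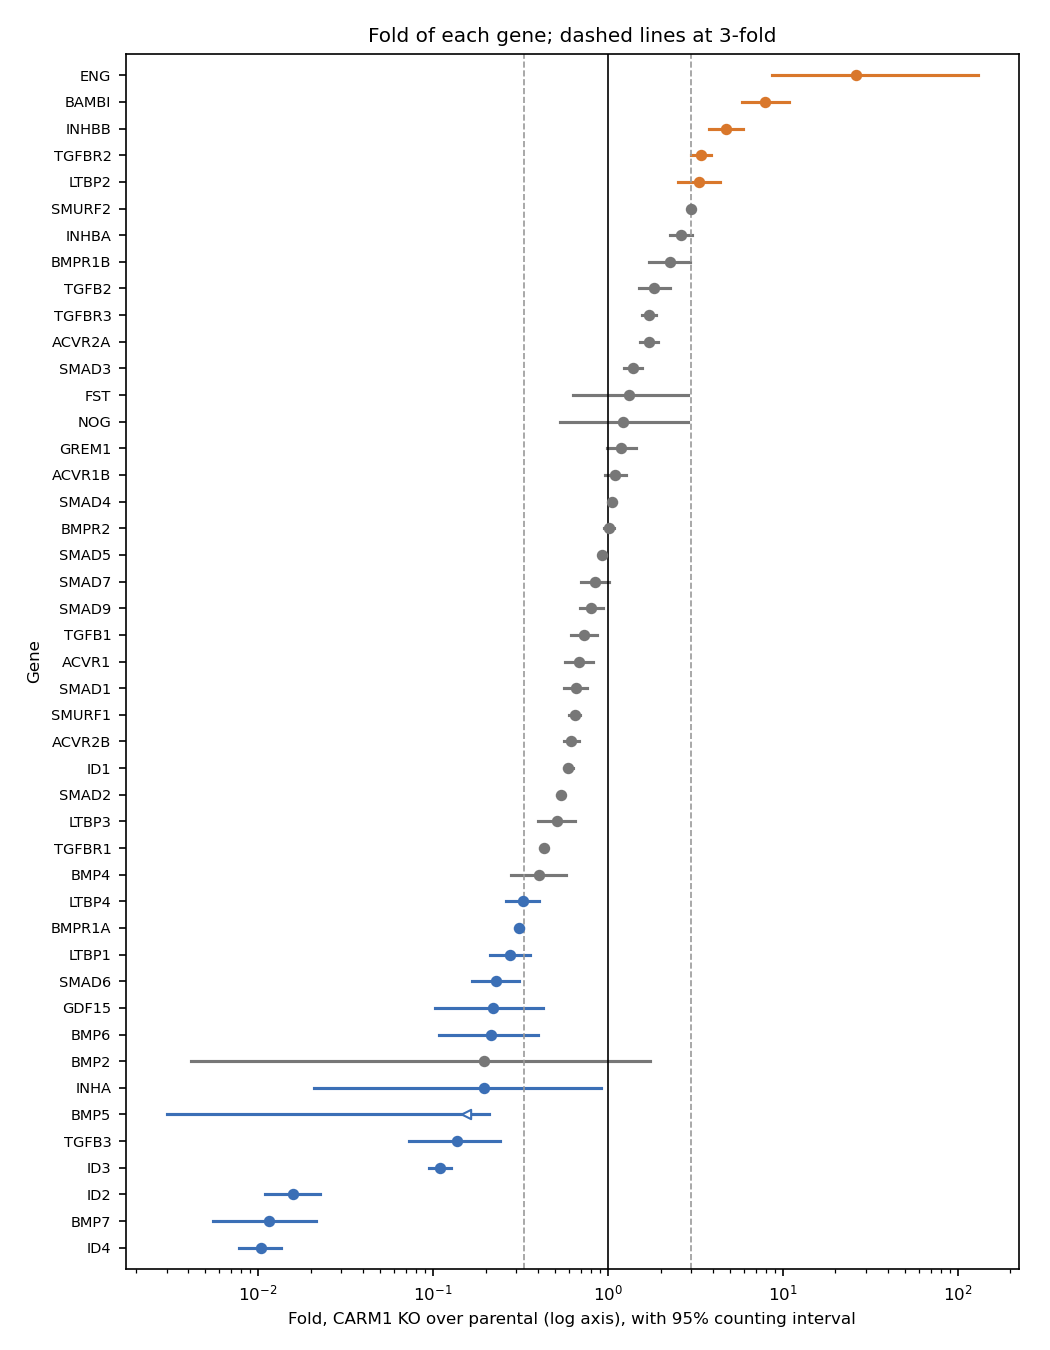
Fold of CARM1 KO over parental (log axis) for each of the 45 genes in order of size, with exact 95% counting intervals, dashed lines at 3-fold in either direction and an open triangle for BMP5, which is a bound. ID4, BMP7 and ID2 lie lowest, ENG and BAMBI lie highest, and LTBP4 and SMURF2 lie at the dashed lines.

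Among the type I receptors, the kinases that phosphorylate SMADs, those with most reads were lower. BMPR1A (chr10:88516353-88692582, plus strand), a BMP receptor, had 4897 parental and 1559 CARM1 KO reads, 3.22-fold lower (95% interval 3.04 to 3.41). Reads of its processed pseudogene BMPR1AP2 were 176 and 111, which is 3.59% and 7.12% of those of BMPR1A. TGFBR1 had 5076 and 2230 reads, 2.33-fold lower (95% interval 2.22 to 2.45). BMPR1B, the other dedicated BMP type I receptor, was higher, with 81 and 187 reads, 2.25-fold (95% interval 1.73 to 2.96). ACVR1B, an activin receptor, had 371 and 420 reads, and ACVR1, a BMP receptor, had 296 and 208 reads, each within 2-fold. Despite these shifts BMPR1A was still more abundant per length than BMPR1B in CARM1 KO cells, 4.85 against 0.894 RPKM. The summed level of the type I receptors was 2.26-fold lower.

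The type II receptors bind ligand and activate the type I kinases. TGFBR2 (chr3:30648093-30735634, plus strand) had 294 parental and 1024 CARM1 KO reads, 3.40-fold higher (95% interval 2.99 to 3.89). ACVR2A had 467 and 823 reads, 1.72-fold higher (95% interval 1.53 to 1.93), and it overlaps ORC4 on the opposite strand, which had 3087 and 3462 reads. ACVR2B had 1081 and 685 reads, 1.62-fold lower (95% interval 1.47 to 1.78). BMPR2 had 1759 and 1818 reads, a ratio of 1.01 with an interval of 0.94 to 1.08. TGFBR1 and TGFBR2, which form the TGF-beta receptor together, thus differed in direction. Per length TGFBR1 was at 20.4 and TGFBR2 at 1.38 RPKM in parental cells, and they were at 8.75 and 4.69 in CARM1 KO cells.

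Both membrane proteins with the largest folds upwards modify receptor signalling without being kinases. ENG (chr9:130577292-130616937, minus strand) encodes endoglin, a co-receptor best known from endothelial cells. It had 3 parental and 81 CARM1 KO reads, 26.4-fold higher (95% interval 8.71 to 131). The endothelial markers CDH5 and VWF stayed at 0 to 2 reads in each library. BAMBI (chr10:28966439-28971861, plus strand), a kinase-less pseudoreceptor that dampens TGF-beta and BMP signals, had 50 and 403 reads, 7.87-fold higher (95% interval 5.86 to 10.8). TGFBR3, the co-receptor betaglycan, which presents TGF-beta2 and inhibin, had 763 and 1347 reads, 1.72-fold higher (95% interval 1.58 to 1.89).

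The receptor-regulated SMADs were all within 2-fold, as were TGFB1, TGFB2 and ID1, whereas ID2, ID3, ID4 and BMP7 were not. SMAD5 had 4353 parental and 4151 CARM1 KO reads, 1.07-fold lower (95% interval 1.03 to 1.12). It made up 61.5% of the summed level of these SMADs per length in parental and 66.0% in CARM1 KO cells. This share depends on gene length, since SMAD2 had a similar number of parental reads but 36426 bases of exon, against 9039 for SMAD5. The longest and the canonical transcript of SMAD2 are both 34626 bases, so the other lengths tried do not remove this dependence. SMAD1 had 459 and 307 reads, 1.53-fold lower (95% interval 1.32 to 1.77), and SMAD9 had 383 and 316 reads, 1.24-fold lower (95% interval 1.07 to 1.44). SMAD2 had 4347 and 2389 reads, 1.86-fold lower (95% interval 1.77 to 1.96), while SMAD3 had 528 and 752 reads, 1.39-fold higher (95% interval 1.24 to 1.56). SMAD4, the partner of all of them, had 2920 and 3173 reads, a ratio of 1.06 with an interval of 1.01 to 1.12.

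The inhibitory SMADs differed from each other. SMAD6, which acts mainly on BMP signalling, had 226 parental and 53 CARM1 KO reads, 4.37-fold lower (95% interval 3.22 to 6.01). SMAD7, which acts on both branches, had 242 and 209 reads, 1.19-fold lower with an interval that held 1 (0.98 to 1.43). The palindrome GTCTAGAC lies in the upstream window of each, and of NOG, as 3 of the 45 members against 1.19% of all protein-coding genes. It is shown for the inhibitory SMADs in capitals, 5′ to 3′ on the strand of each gene, and its part in their folds was not tested. A match shows these letters only and not binding.
SMAD6, 12 bases before the start, chr15:66994532-66994573: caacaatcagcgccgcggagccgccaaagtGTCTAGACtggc
SMAD7, 1260 bases before the start, chr18:46478558-46478625: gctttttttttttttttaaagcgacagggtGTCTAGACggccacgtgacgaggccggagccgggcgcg

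SMURF2 had the most reads of any member, 9460 in parental and 28790 in CARM1 KO cells. The SMURF ligases ubiquitinate SMADs and, through SMAD7, the receptors. SMURF2 was 2.97-fold higher (95% interval 2.90 to 3.04), just short of 3-fold, and was above 95.0% of genes by level per length in parental cells and 98.6% in CARM1 KO cells. It overlaps CEP95 on the opposite strand, which had 1487 and 787 reads. SMURF1 had 2058 and 1359 reads, 1.55-fold lower (95% interval 1.45 to 1.66), so the paralogs differed in direction. SMURF1 overlaps TRRAP on the opposite strand, which had 1638 and 1280 reads.

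To set these folds in their place on the chromosomes, each of the 18 members past 3-fold was set beside the 5 nearest protein-coding genes on either side that had a summed count of 50 or more. The median log2 fold change of the neighbours of ID4 was 0.95, against -6.54 for ID4, and 9 of those 10 genes were higher in CARM1 KO cells. SOX4 was the exception, with 572 and 492 reads. The neighbours of BMP7 had a median of 0.24 and a lowest value of -0.12, against -6.17 for BMP7. PMEPA1, a TGF-beta induced feedback inhibitor that is among these neighbours, had 122 and 402 reads and was 3.22-fold higher. For ID2 the neighbour median was 0.41, with COLEC11 also lower, at 76 and 2 reads. ENG had a log2 fold change of 4.03, and its neighbours ranged from -0.93 to 0.71.

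Some other members had neighbours that differed in the same direction. At lower coordinates than BAMBI, MKX had 62 parental and 674 CARM1 KO reads, ODAD2 had 26 and 306, and MPP7 had 343 and 5072. SVIL, on the other side, had 3991 and 484. Of the 10 neighbours of GDF15, 4 were more than 3-fold lower, against 11.7% of all genes compared, and 3 were for INHA. These 3 were CHPF, TMEM198 and OBSL1, the last of which overlaps INHA. The neighbours of LTBP4 had a median of -0.87, the lowest of the 18 sets. For BMPR1A, 2 of 10 were more than 3-fold lower, MMRN2 with 79 and 9 reads and SNCG with 600 and 2. TGFBR2 had 3 neighbours that were more than 3-fold higher, EOMES, OSBPL10 and ZNF860, against 12.8% of all genes compared. DNA copy number was not measured, and its part was not tested.

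**Figure D4:**
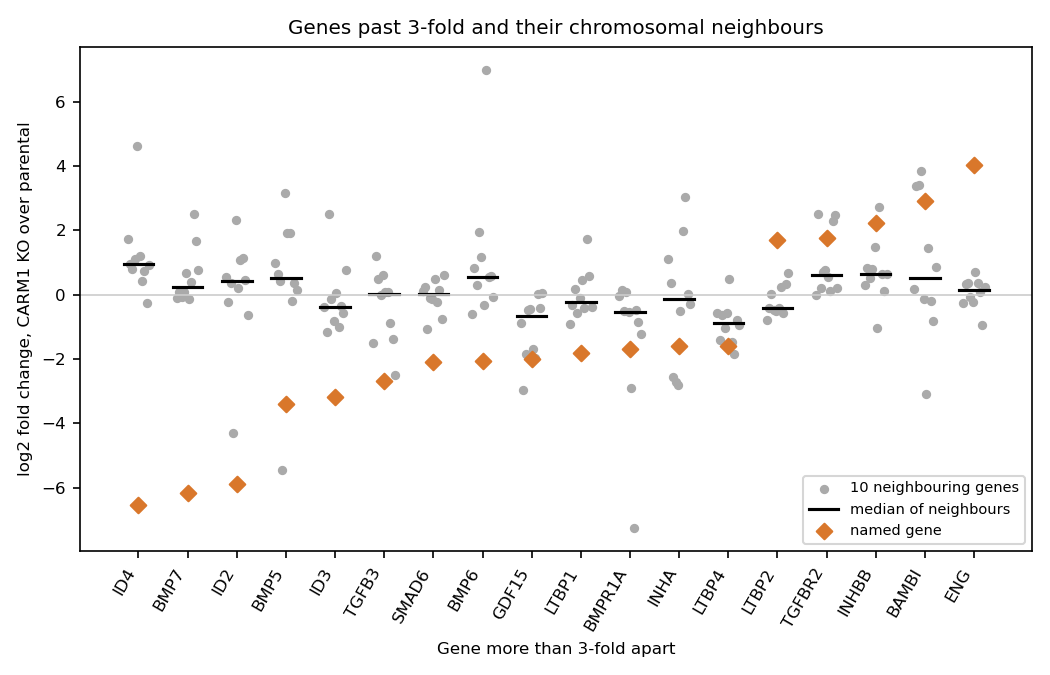
Log2 fold change of each of the 18 genes past 3-fold (diamonds), of its 10 nearest expressed protein-coding neighbours (grey points) and their median (bar). ID4, BMP7, ID2 and ENG lie outside the range of all their neighbours, whereas BAMBI, GDF15, INHA and LTBP4 lie within it.

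Other genes of the pathway that are not members were taken from lists of ligands, receptors, extracellular modulators and intracellular regulators. Their counts past 3-fold can be read beside the 12.8% of all genes compared that were higher and the 11.7% that were lower. Of 8 other ligands with enough reads, 0 were more than 3-fold higher and 1 was lower, namely GDF1 with 13 and 3 reads. Of 5 other receptors, 2 were higher and 1 lower. ACVRL1, the type I receptor that works with endoglin, had 23 and 122 reads, 5.18-fold higher (95% interval 3.30 to 8.48). ACVR1C, a receptor for nodal and activin B, had 3 and 21 reads, 6.84-fold higher (95% interval 2.04 to 35.8). LRRC32, which holds latent TGF-beta on the cell surface, had 45 reads and 1 read.

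Of 22 extracellular antagonists and activators with enough reads, 6 were more than 3-fold higher and 3 lower, against 12.8% and 11.7% of all genes, so the lower count was near that of all genes. The median log2 fold change of the list was 0.82, against -0.02 for all genes. Thrombospondin 1, an activator of latent TGF-beta encoded by THBS1, had 4510 and 35487 reads, 7.69-fold higher (95% interval 7.45 to 7.93). The BMP antagonist CHRDL1 had 761 and 4520 reads, 5.80-fold higher (95% interval 5.37 to 6.27). BMPER, a BMP-binding modulator, had 34 and 242 reads, and CRIM1, which binds BMPs at the cell surface, had 3561 and 12084 reads. FSTL1, a follistatin-like protein, had 7479 and 24062 reads, and the protease TLL1 had 1 and 22. On the lower side the BMP antagonist SOSTDC1 had 50 reads and 0, 17.1-fold lower with 0 set to 3 reads (95% interval from 13.4). DCN, which is also a fibroblast marker, had 24 reads and 0. ITGAV, the integrin alpha-V subunit that takes part in TGF-beta activation, had 36023 and 9664 reads, 3.82-fold lower (95% interval 3.73 to 3.90). Of 24 intracellular regulators with enough reads, PMEPA1 was the 1 past 3-fold, and 0 were more than 3-fold lower.

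Genes widely used as responses to the pathway were found in both directions. Of 29 TGF-beta response genes with enough reads, 8 were more than 3-fold higher and 9 lower, against 12.8% and 11.7% of all genes, and the median log2 fold change was 0.29. The largest fold upwards was that of fibronectin, FN1, with 14018 and 214759 reads. It was followed by MMP9, with 2 and 17 reads, LMCD1, with 154 and 824, and CDKN2B, a cell cycle inhibitor, with 74 and 364. TGFBI had 6052 and 27323 reads, and N-cadherin, CDH2, had 1451 and 6087. The largest folds downwards were those of matrix and contractile genes, COL1A2 with 16732 and 3 reads, POSTN with 32601 and 7, and smooth muscle actin, ACTA2, with 28564 and 38. HAS2 had 94 and 2 reads, NOX4 had 377 and 26, and TAGLN had 7769 and 1034. COL1A2 is also one of the fibroblast markers above. CTGF, a matricellular protein gene often used as a TGF-beta readout, had 1166 and 1200 reads.

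Of 10 BMP response genes that are not members and had enough reads, 3 were more than 3-fold higher and 4 lower, against 12.8% and 11.7% of all genes. Their median log2 fold change was 0.79, against -0.02 for all genes. TBX2 had 5608 parental and 87 CARM1 KO reads, 66.0-fold lower (95% interval 53.4 to 82.5). DLX2 had 2079 and 31 reads, HEY1 had 421 and 34, and GATA2 had 1090 and 292. The higher ones had few reads, ATOH8 with 2 and 32, DLX5 with 4 and 21, and RUNX2 with 8 and 29. The 4 lower ones each had over 400 reads in parental cells, as did ID2, ID3 and ID4, and also ID1, which was within 2-fold.

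**Figure D5:**
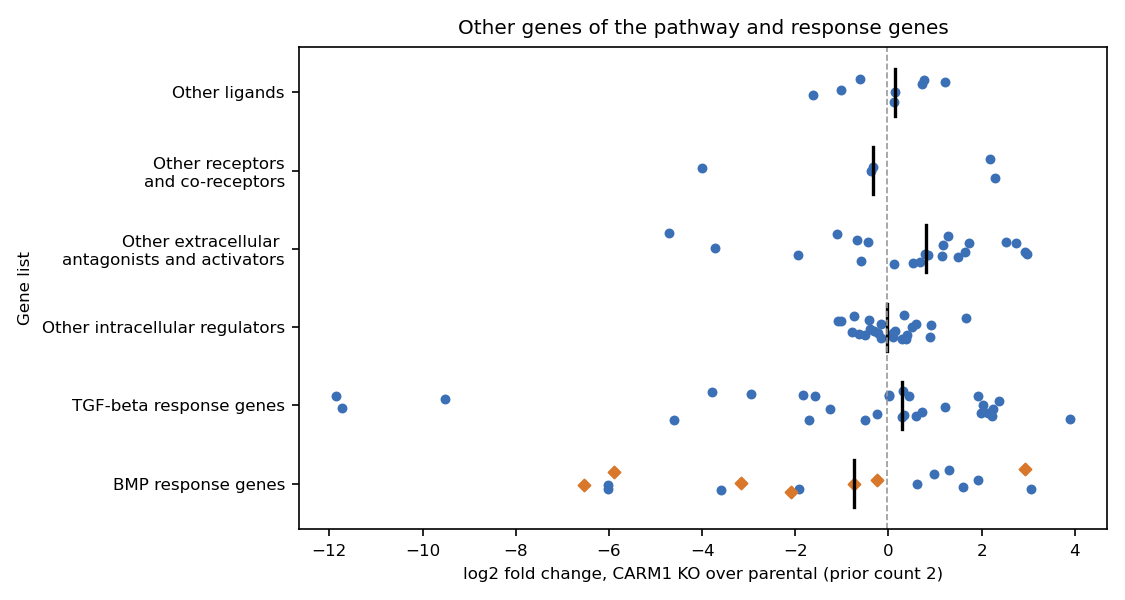
Log2 fold change (CARM1 KO over parental, prior count of 2) of genes with at least 10 reads in 6 lists, with the list median as a bar and the median of all genes, -0.02, as a dashed line. Circles are genes outside the 45 members and diamonds are members that the BMP list contains. The BMP and TGF-beta response lists span the widest ranges, and the intracellular regulators cluster near 0.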

How the data were processed

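Parental and CARM1 KO A1847 cells gave 1 library each, sequenced as 75 bp paired ends. Per the study's methods, bowtie2 was used against hg19 and RSEM for quantification, and the authors deposited the resulting estimated counts of each Ensembl gene as whole numbers, not normalized. Whether counting used strand is not given in the sources used here, so reads of overlapping genes on opposite strands may have been mixed. Symbols, coordinates and exon lengths came from GENCODE 44 lifted to GRCh37, with 55501 of the 57736 identifiers matched. Upstream bases were read from the GRCh37 genome.

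Counts were scaled with TMM in edgeR 4.0.16 under R 4.3.3. A difference was called at a fold above 3, or 2 as a second rule, among genes with a summed count of 10 or more. The spread between replicates cannot be estimated from 1 library per condition, so no p-value is given. Folds have exact 95% binomial intervals (scipy 1.17.1), a count of 0 was set to 3 reads, and log2 fold changes used a prior count of 2. RPKM was computed from TMM-scaled counts, with the union of all exons as gene length. The steps were tested on simulated data. Alternatives were DESeq2 1.42.0 size factors, upper-quartile, total and protein-coding scaling, minimums of 1 and 50 reads, intervals wholly past the fold, edgeR's exact test with assumed coefficients of variation of 0.1, 0.2 and 0.4 at an FDR of 0.05, a prior count of 0.125, and other gene lengths. All 45 members, CARM1, and from each other list up to 6 genes per direction with the largest folds past 3 are named, and so are genes overlapping a member. Markers, chromosomal neighbours, CTGF and BMP8B were named after their values were seen. Some items are not reported here. The members and lists were chosen with earlier results of these data known.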

Additional observations from a re-analysis of the deposited data

How the results depend on the processing

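The counts of members past 3-fold, 5 higher and 13 lower, depended most on the spread assumed between replicates. With edgeR's exact test at an assumed coefficient of variation of 0.4 they were 2 and 6, since such a test assumes a wide spread. The 8 genes that then passed were ENG, BAMBI, TGFB3, BMP5, BMP7, ID2, ID3 and ID4. At 0.1 and at 0.2 they were 5 and 12 each. With the whole counting interval past 3-fold they were 3 higher and 8 lower. Under the other scalings and read minimums there were 5 to 6 higher and 11 to 14 lower. SMURF2 passed 3-fold with DESeq2 size factors (3.04) and upper-quartile scaling (3.01), and LTBP4 no longer did with DESeq2 size factors. Past 2-fold there were 8 higher under each scaling and minimum tried, and 13 to 16 lower. The members' median log2 fold change was between -0.56 and -0.46, and CARM1 stayed lower, at 0.36 to 0.39 of its parental level. The scalings moved the median of all genes by -0.06 to 0.03 on the log2 scale. No member or named gene past 3-fold changed direction under another scaling, but none could have. Over the scalings, the scaled size of the CARM1 KO library was 1 to 1.07 times that of the parental one. Using the canonical transcript, a length chosen after seeing the data, or the longest transcript moved many shares within families. BMPR2 and TGFBR2 had similar shares of the type II receptors in CARM1 KO cells by exon union, 31.2% and 32.1%, and by canonical transcript they had 25.4% and 38.1%. No paired analysis was possible because neither condition was sequenced more than once, which also leaves nothing to leave out. Members with few reads, such as BMP2, FST, NOG and INHA, are limited by depth.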
